A study of Homo sapiens with 6 samples.

Results

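The report describes 54 genes of the FOX, SOX, GATA, HNF, PAX, TBX, LHX, MSX, DLX, MEIS, IRX, ZIC, OTX and NKX families of developmental transcription factors, and SIX5, in H9 human embryonic stem cells (hESCs) and in endoderm made from them. Members were all genes of the deposited table whose name starts with one of these family names followed by the member's number or letter, after SOX2, SOX17, FOXA2 and GATA6 were left out by name. The names matched 58 genes before and 54 after this step, of 9588 gene names in the table, and the 54 genes have 59 of its 14686 regions. The forkhead (FOX) family gave 21 genes and the SOX family 10, the LHX, NKX and ZIC families gave 3 each, GATA, HNF, IRX and MSX 2 each, and PAX, TBX, OTX, DLX and MEIS 1 each, and SIX5 was the only gene of its family. HOX genes were looked for as well and gave 0. The rule uses names and no measured value, but it was drawn up with earlier results of these data known.

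Sequencing of the 3' ends of polyadenylated transcripts gave 6 libraries, and the signal of a region is its read count scaled to the library's depth. The 3 endoderm libraries came from H9 cells kept for 6 days in activin A at 100 ng/ml in RPMI medium, in which fetal bovine serum was stepped up daily over 0%, 0.2% and then 2%, with fresh medium on day 3. The 3 hESC libraries came from undifferentiated H9 cells at day 0, grown on matrigel in medium conditioned by mouse embryonic fibroblasts, so that activin, medium, serum and days of culture differ along with the cell type. The cells were of passage 51. By their labels the libraries of a type stand for the phases G1, G1/S and S, with 1 library for each, taken at 0, 3 and 6 h in endoderm and at 0, 2 and 3 h in hESCs. What the hours are counted from, and how the phases were obtained, the sources used here do not say. Values listed for 3 libraries of a type below are always in the order G1, G1/S, S. No library has a replicate of its own type and phase, and all come from 1 line, so a p-value here reflects no more than the scatter of these 6 libraries, which may be partly technical.

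These proteins bind DNA through the domain that names their family: the forkhead or winged helix (FOX), the HMG box (SOX), the zinc finger (GATA, ZIC), the homeodomain (LHX, NKX, OTX, MSX, DLX, IRX, MEIS, SIX5), the paired domain (PAX) and the T-box (TBX). Combinations of them set up the body axes and the germ layers and later identify organs, and one gene is often used again in several tissues. Activin A acts through the nodal branch of TGF-beta signalling, in which activated SMAD proteins enter the nucleus and bind there with partners such as the forkhead protein FOXH1. In vertebrate embryos high nodal signalling gives definitive endoderm, the layer from which gut, liver, pancreas and lung arise, with the organiser genes of the anterior midline switched on in neighbouring cells.

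The endoderm label was checked with markers outside the member list. All 9 measured markers of definitive endoderm were higher in endoderm, among them SOX17, the HMG-box factor of early endoderm, with a signal of 155 ± 44.4 in endoderm and 2.45 ± 1.85 in hESCs (SD, n = 3 each). Their summed signal was between 15636 and 31578 in the endoderm libraries and between 939 and 1184 in the hESC libraries. Of 10 measured hESC markers, 3 were lower in endoderm (SOX2, DNMT3B and UTF1) and none was higher, and POU5F1, the pluripotency factor OCT4, had 287 ± 28.5 in endoderm and 336 ± 231 in hESCs (limma adjusted p = 0.989). TTR, a marker of extraembryonic endoderm and liver, had 0 reads in the 3 endoderm libraries, and the other 3 measured markers of that list (APOA1, DAB2, SPARC) were higher in endoderm. In such bulk libraries fewer cells of a type and less RNA per cell cannot be told apart.

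The libraries held between 2502792 and 5389666 reads in endoderm and between 4194957 and 6203079 in hESCs. One read was worth a signal between 0.690 and 1.71 in endoderm and between 0.591 and 1.04 in hESCs, and a count of 0 allows a signal of up to 3 reads, which is between 2.07 and 5.13 in endoderm and between 1.77 and 3.12 in hESCs. These limits cover counting error only, because amplified reads are not independent molecules. The 2 G1/S libraries stand apart from the others across 9871 regions with a known base composition. A library's deviation from the mean of the 3 libraries of its own type was rank-correlated with the GC content of the transcript's end. The correlation was 0.43 in endoderm G1/S and 0.43 in hESC G1/S. It was -0.37 and -0.12 in the other endoderm libraries and -0.16 and -0.31 in the other hESC libraries. Deviations sum to 0 within a type, so the correlations of a type depend on each other. The part of GC content in the results was not tested. For called members the fit without the 2 G1/S libraries is given with each group, as is a fit corrected for GC content where it changes a call. Every region in the table has at least 60 reads over the 6 libraries, so a member that is quiet in one type is in the table only if it is read in the other.

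Sequence upstream of the gene is shown for 4 members that were higher in endoderm. FOXI1 and PAX6 were among the largest increases. OTX2 and HNF4A were the only called members whose windows matched 2 of the motifs given below. Their matches thus do not stand for the increases as a set. Of the 54 members, 36 matched a promoter record of RefSeq on GRCh38.p14, and the 250 bases before the annotated gene start were searched on both strands for short motifs of factors active in endoderm. The motifs were GATAA for GATA factors, TGTTTAC for forkhead factors, ACAAT for SOX factors, CAGAC for SMAD proteins, TAATCC for homeodomains of the OTX type, AATNNACA for FOXH1 and TATAAA for the TATA box. Capitals mark matches to these letters, and all sequences run 5' to 3' on the strand of the gene.
FOXI1: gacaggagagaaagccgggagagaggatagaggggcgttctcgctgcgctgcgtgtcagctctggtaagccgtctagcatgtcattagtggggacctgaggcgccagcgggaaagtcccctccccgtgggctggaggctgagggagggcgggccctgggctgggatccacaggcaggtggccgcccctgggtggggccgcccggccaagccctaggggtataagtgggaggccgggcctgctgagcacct
PAX6: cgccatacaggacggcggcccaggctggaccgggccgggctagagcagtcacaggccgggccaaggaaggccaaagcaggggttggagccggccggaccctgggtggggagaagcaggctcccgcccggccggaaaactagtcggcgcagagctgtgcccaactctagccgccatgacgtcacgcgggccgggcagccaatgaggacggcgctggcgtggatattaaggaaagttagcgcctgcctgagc
OTX2: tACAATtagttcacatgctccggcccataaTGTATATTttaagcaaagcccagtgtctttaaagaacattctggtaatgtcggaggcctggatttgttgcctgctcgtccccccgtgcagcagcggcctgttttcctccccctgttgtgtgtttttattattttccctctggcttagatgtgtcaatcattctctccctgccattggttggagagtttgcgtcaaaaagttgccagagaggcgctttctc
HNF4A: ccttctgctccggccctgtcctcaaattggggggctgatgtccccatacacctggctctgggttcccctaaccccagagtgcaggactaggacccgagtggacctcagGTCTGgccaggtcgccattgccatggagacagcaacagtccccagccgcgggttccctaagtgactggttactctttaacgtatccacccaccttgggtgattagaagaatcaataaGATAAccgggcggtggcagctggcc
The windows lie at chr5:170105647-170105896 on the plus strand (FOXI1), chr11:31817962-31818211 on the minus strand (PAX6), chr14:56810480-56810729 on the minus strand (OTX2) and chr20:44355449-44355698 on the plus strand (HNF4A). FOXI1 and PAX6 held no match, with a GC content of 68.4% in both and 14 CpG pairs in FOXI1 and 22 in PAX6. OTX2 held 1 SOX match and 1 FOXH1 match at a GC content of 47.2%, and HNF4A held 1 GATA match and 1 SMAD match at 58.4%. Of the 14 members higher in endoderm with a record, OTX2 alone held SOX or FOXH1 letters. Among the same 14, HNF4A alone held GATA letters, and SMAD letters were found in HNF4A and FOXD1. Among the 36 members, the GATA letters were found in 4 (11.1%), against 20.4% of all 35116 promoters, and the SOX letters in 5 (13.9%), against 24.6%. SMAD letters were found in 7 members (19.4%), against 38% of all promoters, and FOXH1 letters in 2 (5.56%), against 9.88%. The forkhead letters were found in 1 member (2.78%, against 2.98%), the TATA box in 2 (5.56%, against 10.7%) and the OTX-type letters in 0 (against 5.62%). The member windows had a median GC content of 68.4% and 24.5 CpG pairs, against 58% and 11.0 over all promoters. A match is a string of letters and not a binding site, and the annotated start may not be the one used in these cells.

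Endoderm against hESCs: 19 of the 54 genes were higher in endoderm, 3 were lower and 32 did not pass the test (limma on log2(signal + 1), Benjamini-Hochberg adjusted p under 0.05 over 14657 regions). The call rate over all regions was 14.5% (6.9% higher and 7.6% lower), and among the members it was 40.7% (35.2% higher and 5.56% lower). At an unadjusted p under 0.05, 29 members passed, and 34.2% of all regions did. The median log2 difference, endoderm minus hESC, was 0.85 over the members and 0.02 over all regions, with 42 members above 0 and 12 below. All 3 endoderm libraries lay above all 3 hESC libraries for 21 members, while 14.7% of all regions did so, and below them for 4 members, while 18.7% of all regions did so. For the other 29 members the types overlapped. This scale understates the relative change of members with few reads, since 1 is added to each signal before the logarithm.

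The median difference of the members taken within a phase was 0.62 (G1), 1.23 (G1/S) and 0.97 (S). Leaving out 1 library at a time left 6 of the 22 calls in every fit (among them GATA4, PAX6, LHX1, OTX2 and HNF4A), and the number of called members lay between 7 and 26. Without both G1/S libraries 7 members were called, namely those 6 and FOXJ1, and over all regions 415 were called instead of 2125. These fits are not separate checks, because a library whose partner of the same phase is left out adds nothing to the difference between types. LHX1, for example, differed by 3.18 without hESC G1/S, without endoderm G1/S and without both. Fits that drop either library of a phase thus share their difference, and only the error estimate and adjusted p vary. Of the 19 higher members, 9 had a mean signal under 10 in hESCs (FOXI1, GATA4, PAX6, FOXQ1, SOX21, MSX2, NKX2-2, FOXJ2 and FOXC2), and the other 10 were already read above that level in hESCs.

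**Figure D1:**
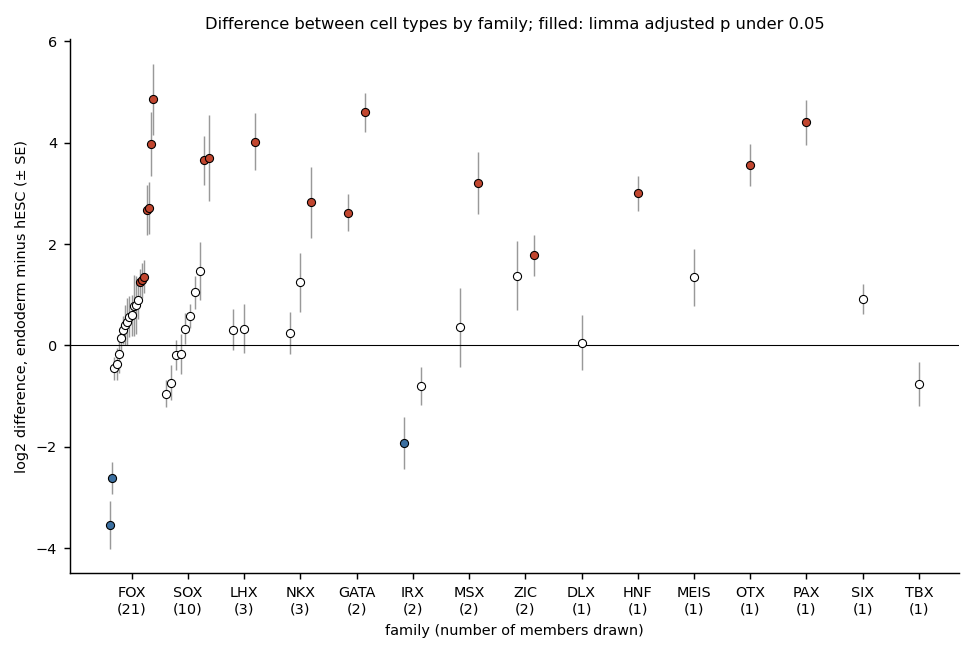
Log2 difference of log2(signal + 1), endoderm minus hESC (y axis), for 52 members grouped by family along the x axis, with the standard error of the limma fit as bars and filled points for an adjusted p under 0.05. The 18 called increases drawn reach from 1.25 (FOXP4) to 4.85 (FOXI1) and the 3 called decreases from -1.93 (IRX4) to -3.55 (FOXS1), and both GATA genes are filled and above 0.

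Genes grouped as endoderm factors had 5 of 6 higher and none lower, with a median log2 difference of 3.04. Beside this count and those of the other role groups below stand the shares over all regions, 6.9% higher and 7.6% lower. As the role groups were drawn up with earlier results in view, their counts and medians describe them and do not rank them. GATA4, a zinc-finger factor of endoderm and heart, had a signal of 149.8, 229.6 and 161 in the endoderm libraries, against 4.54, 6.25 and 8.86 in the hESC libraries. The lowest endoderm value was thus far above the highest hESC value, and the means, 180.1 ± 43.2 in endoderm and 6.55 ± 2.18 in hESCs (SD, n = 3 each), differ 27.5-fold. The log2 difference was 4.60 ± 0.39 (SE; limma adjusted p = 0.00221). GATA4 has 2 more regions in the table, which were higher as well, by 3.82 (adjusted p = 0.0141) and 4.47 (adjusted p = 0.00238) on the log2 scale.

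HNF4A, a nuclear receptor of liver and gut, had 149.8, 229.6 and 145 in endoderm, against 18.9, 20.8 and 21.9 in hESCs. The hESC libraries were close to each other and every endoderm library lay far above them, a log2 difference of 3.00 ± 0.34 (adjusted p = 0.00404). The HNF4A region lies at chr20:42494632-42494850 on the authors' build hg18, without an annotation of exons for that build here.

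FOXQ1, a forkhead gene of epithelia, had 69.7, 103 and 46.2 in endoderm, against 5.30, 1.04 and 5.91 in hESCs (log2 difference 3.98 ± 0.64, adjusted p = 0.0105). GATA3, known from T cells, trophoblast and several epithelia, had 110.5, 249.5 and 176 in endoderm, against 28.0, 31.2 and 21.9 in hESCs (2.62 ± 0.36, adjusted p = 0.00647). Both types were well separated in each gene, with no hESC value near an endoderm value. As GATA3 also marks trophoblast, the other measured trophoblast markers are given beside it: KRT7 had 40.3 ± 16.9 in endoderm and 209.7 ± 45.9 in hESCs, and TFAP2C had 7.09 ± 4.18 in endoderm and 31.5 ± 5.23 in hESCs, both lower in endoderm. FOXA3, the member of the FOXA pioneer factors that is best known from liver, was the exception of the group, with 262, 281 and 166 in endoderm against 203, 107 and 240.4 in hESCs (0.41 ± 0.39, adjusted p = 0.488), and its types overlap. The calls of FOXQ1 and GATA3 were kept in 4 of the 6 leave-one-library-out fits and were lost without both G1/S libraries (adjusted p = 0.0597 and 0.0635).

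**Figure D2:**
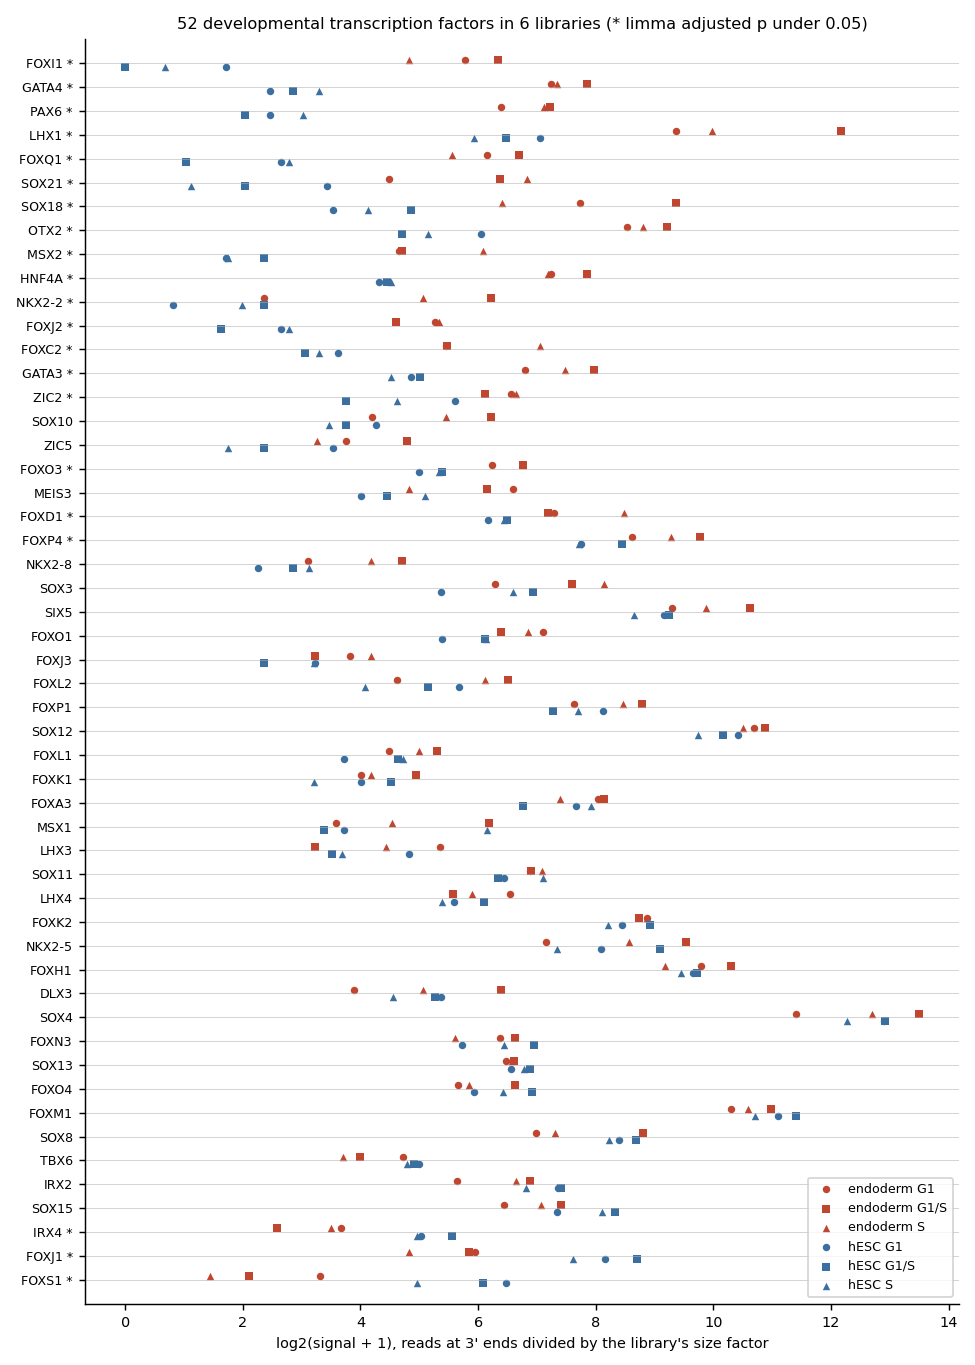
The log2(signal + 1) of 52 members (rows, ordered by the difference between types) in each of the 6 libraries, with endoderm points in red above hESC points in blue, circles for G1, squares for G1/S, triangles for S, and an asterisk for a limma adjusted p under 0.05. In GATA4 the endoderm signals, 149.8 to 229.6, and the hESC signals, 4.54 to 8.86, lie far apart, whereas in NKX2-2 the lowest endoderm signal, 4.14, is below the highest hESC signal, 4.16.

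Pluripotent and anterior epiblast factors were mixed, with 2 of 6 higher, 4 not past the test and a median log2 difference of 1.21. OTX2, the homeodomain factor of the anterior epiblast, forebrain and anterior visceral endoderm, had 369, 594 and 443 in endoderm, against 65.1, 25.0 and 34.3 in hESCs. The means were 469 ± 114 in endoderm and 41.4 ± 21.0 in hESCs, an 11.3-fold difference (log2 3.55 ± 0.42, adjusted p = 0.00424), at chr14:56346532-56346668 on hg18. ZIC2, a zinc-finger gene needed for forebrain development, had 93.2, 68.2 and 99.3 in endoderm, against 47.7, 12.5 and 23.6 in hESCs (1.78 ± 0.41, adjusted p = 0.0302). Its call was kept in 2 of the 6 leave-one-library-out fits and lost without both G1/S libraries (adjusted p = 0.139), where OTX2 kept its own (adjusted p = 0.0445).

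ZIC5, a neighbour of ZIC2 on chromosome 13, had a log2 difference of 1.38 ± 0.67 and a signal of 12.4, 26.6 and 8.56 in endoderm, against 10.6, 4.16 and 2.36 in hESCs (adjusted p = 0.191). SOX3, close in sequence to SOX2 and a factor of neural progenitors, had 76.6, 191 and 282 in endoderm, against 40.1, 121 and 95.1 in hESCs (1.05 ± 0.32, adjusted p = 0.0685). SOX15, which is read in hESCs, had 86.3, 168 and 134 in endoderm, against 160.4, 321 and 276 in hESCs (-0.95 ± 0.27, adjusted p = 0.0561). SOX2, left out of the members by name, was lower in endoderm, with 557 ± 258 in endoderm and 1615 ± 272 in hESCs (-1.62 ± 0.33, adjusted p = 0.0214).

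Neural and sensory factors, with which the Iroquois (IRX) genes were counted as a family, had 2 of 4 higher and 1 lower. PAX6, the paired-domain gene of eye, forebrain and pancreatic islets, had 82.9, 148 and 139 in endoderm, against 4.54, 3.12 and 7.09 in hESCs. These are 290 reads in endoderm and 21 in hESCs over 3 libraries each, and the signal means of 123 ± 35.2 in endoderm and 4.92 ± 2.01 in hESCs differ 25.1-fold (log2 4.40 ± 0.44, adjusted p = 0.00326). SOX21, a SOX gene of neural progenitors, had 21.4, 81.5 and 113 in endoderm, against 9.84, 3.12 and 1.18 in hESCs (3.69 ± 0.85, adjusted p = 0.031). IRX4, the lower one, is known best from the heart ventricle and not from neural tissue, and had 11.7, 4.99 and 10.3 in endoderm, against 31.8, 45.8 and 30.1 in hESCs (-1.93 ± 0.52, adjusted p = 0.0472). IRX2, of the same family, had 49.0, 116 and 99.3 in endoderm, against 163, 169.7 and 111 in hESCs and did not pass (-0.80 ± 0.38, adjusted p = 0.178).

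Beside PAX6 and SOX21, the measured markers of neuroectoderm other than PAX6 itself were NES, with 8335 ± 3142 in endoderm and 7437 ± 1539 in hESCs, NCAM1, with 115 ± 23.7 in endoderm and 45.9 ± 10.3 in hESCs, and TUBB3, with 2651 ± 379.9 in endoderm and 1697 ± 641 in hESCs. NCAM1 was higher in endoderm (adjusted p = 0.0345) and the other two did not pass, and 4 of the 10 genes on that list were in the table. The summed signal of the list was between 7264 and 14098 in endoderm and between 7763 and 11276 in hESCs. Their part in the PAX6 and SOX21 values was not tested. SOX21 and IRX4 kept their calls in 2 of the 6 leave-one-library-out fits and lost them without both G1/S libraries (adjusted p = 0.139 and 0.195).

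Mesoderm and neural crest factors had 2 of 8 higher, none lower and a median log2 difference of 0.85. MSX2, a homeodomain gene that responds to BMP signals, had 24.2, 25.0 and 66.8 in endoderm, against 2.27, 4.16 and 2.36 in hESCs (3.20 ± 0.61, adjusted p = 0.0186). FOXC2, a forkhead gene of paraxial mesoderm and lymphatic vessels, had 42.8, 43.3 and 132 in endoderm, against 11.3, 7.29 and 8.86 in hESCs (2.67 ± 0.50, adjusted p = 0.0174). In both genes the S library was the highest of the endoderm libraries. TBX6, the T-box gene of the presomitic mesoderm, had 25.5, 15.0 and 12 in endoderm, against 31.0, 29.2 and 26.6 in hESCs, so that every endoderm library lay below every hESC library while the difference did not pass (-0.76 ± 0.43, adjusted p = 0.249).

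MSX1 and NKX2-5, a gene of the early heart, overlapped between types. MSX1 had 11.0, 71.5 and 22.3 in endoderm, against 12.1, 9.37 and 70.3 in hESCs, with its high value in a different phase in each type (0.36 ± 0.78, adjusted p = 0.773). NKX2-5 had 142, 739 and 378 in endoderm, against 270.1, 543 and 161 in hESCs (0.25 ± 0.41, adjusted p = 0.697). MEIS3, a homeodomain gene of the TALE class, had 96.0, 69.9 and 27.4 in endoderm, against 15.1, 20.8 and 33.1 in hESCs (1.34 ± 0.57, adjusted p = 0.142). SOX10, the SOX gene of neural crest, had 17.3, 73.2 and 42.8 in endoderm, against 18.2, 12.5 and 10.04 in hESCs (1.46 ± 0.57, adjusted p = 0.121). The endoderm value in G1 falls within the hESC values in SOX10 and the endoderm value in S does so in MEIS3, and SOX8 differed by -0.73 ± 0.35 (adjusted p = 0.179). Among the measured mesoderm markers, TWIST1 was higher, with 149 ± 101 in endoderm and 22.4 ± 12.4 in hESCs, and the other 3 did not pass and had lower means in endoderm: KDR had 16.4 ± 2.75 in endoderm and 29.04 ± 5.70 in hESCs (-0.79 ± 0.42, adjusted p = 0.22), TCF15 had 61.7 ± 11.8 in endoderm and 112 ± 4.11 in hESCs (-0.87 ± 0.32, adjusted p = 0.1), and TBX6 is given above. The median log2 difference of the 4 markers was -0.77. Their summed signal lay between 178 and 366 in endoderm and between 187 and 198 in hESCs, and its part in the MSX2 and FOXC2 values was not tested. The MSX2 and FOXC2 calls were kept in 2 of the 6 leave-one-library-out fits and lost without both G1/S libraries (adjusted p = 0.0641 and 0.0771).

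Signal-regulated and broadly expressed forkheads had 2 of 10 higher, none lower and a median log2 difference of 0.38. FOXO3, a forkhead factor kept out of the nucleus by insulin signalling, had 74.6, 108 and 108 in endoderm, against 31.0, 40.6 and 39.6 in hESCs (1.35 ± 0.33, adjusted p = 0.0354). FOXP4, known from lung and gut epithelium, had 389, 868 and 623 in endoderm, against 213, 347 and 210.3 in hESCs (1.25 ± 0.27, adjusted p = 0.0245). FOXH1, the partner of activated SMAD proteins, had 879, 1251 and 577 in endoderm, against 803, 842 and 698 in hESCs (0.14 ± 0.26, adjusted p = 0.722), and its region overlaps one of KIFC2 on the other strand, so that the reads of the 2 genes may not be separated. FOXM1, which drives genes of mitosis, had 1254, 2013 and 1534 in endoderm, against 2177, 2703 and 1678 in hESCs (-0.45 ± 0.23, adjusted p = 0.206). FOXO1, FOXO4, FOXK1, FOXK2, FOXN3 and FOXP1 had log2 differences between -0.38 (FOXO4) and 0.90 (FOXO1), none past the test. The FOXO3 and FOXP4 calls were kept in 2 of the 6 leave-one-library-out fits and lost without both G1/S libraries (adjusted p = 0.142 and 0.12).

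Broad progenitor SOX factors had none of 4 past the test and a median log2 difference of 0.08. SOX4, which holds more reads than any other member, had 2696, 11562 and 6665 in endoderm, against 7631, 7758 and 4924 in hESCs (-0.16 ± 0.39, adjusted p = 0.795). Its endoderm values span more than the whole range of the hESC values. SOX12 had 1641, 1875 and 1446 in endoderm, against 1367, 1146 and 848 in hESCs (0.58 ± 0.23, adjusted p = 0.12), SOX11 differed by 0.33 ± 0.30 (adjusted p = 0.474) and SOX13 by -0.19 ± 0.30 (adjusted p = 0.68).

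The remaining 16 members, placed in none of these role groups, included 6 of the increases and 2 of the decreases, with a median log2 difference of 0.86. FOXI1, the forkhead gene of ionocytes and of the inner ear, had 53.9, 79.9 and 27.4 in endoderm, against 2.27, 0 and 0.591 in hESCs. These values rest on 142 reads in endoderm and 4 in hESCs, and the log2 difference was 4.85 ± 0.70 (adjusted p = 0.0077), at chr5:169469073-169469226 on hg18. Without endoderm G1/S the difference was 4.11 and did not pass (adjusted p = 0.071), and without both G1/S libraries its adjusted p was 0.0526. LHX1, a LIM-homeodomain gene of the gastrula organiser, had 661, 4587 and 1006 in endoderm, against 132, 87.5 and 59.7 in hESCs. The G1/S library alone held most of its endoderm signal, giving means of 2085 ± 2174 in endoderm and 93.2 ± 36.7 in hESCs, yet the lowest endoderm value was still well above the highest hESC value (4.02 ± 0.56, adjusted p = 0.00679, at chr17:32375827-32376027 on hg18). LHX1 kept its call without both G1/S libraries (adjusted p = 0.0455).

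SOX18, a SOX gene of blood and lymph vessel lining, had 211, 659 and 83.9 in endoderm, against 10.6, 28.1 and 16.5 in hESCs (3.66 ± 0.48, adjusted p = 0.00586). NKX2-2, of ventral neural tube and pancreatic islets, had 4.14, 73.2 and 32.5 in endoderm, against 0.757, 4.16 and 2.95 in hESCs (2.83 ± 0.70, adjusted p = 0.0384), the one called member whose types overlap. FOXJ2 had 37.3, 23.3 and 39.4 in endoderm, against 5.30, 2.08 and 5.91 in hESCs (2.71 ± 0.51, adjusted p = 0.0178). FOXD1, a gene of kidney stroma and retina, had 155, 145 and 354 in endoderm, against 71.1, 88.5 and 85.7 in hESCs (1.29 ± 0.35, adjusted p = 0.0497), and its region is overlapped by an unnamed region on the other strand. SOX18 lost its call without hESC G1/S (adjusted p = 0.0541), FOXJ2 kept its call in 3 of the 6 leave-one-library-out fits and NKX2-2 and FOXD1 in 2, and all 4 lost it without both G1/S libraries (adjusted p = 0.0589, 0.0799, 0.176 and 0.0965). FOXD1 also did not pass with a GC correction (adjusted p = 0.063).

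The decreases outside the role groups were FOXS1 and FOXJ1. FOXJ1, the forkhead gene that switches on motile cilia, had 60.8, 56.6 and 27.4 in endoderm, against 284, 414 and 196 in hESCs. Its means were 48.2 ± 18.2 in endoderm and 298 ± 110.1 in hESCs, which is 6.18-fold higher in hESCs (-2.62 ± 0.31, adjusted p = 0.00424), at chr17:71650165-71650407 on hg18. The FOXJ1 call was kept in 5 of the 6 leave-one-library-out fits and lost without hESC G1/S. Without both G1/S libraries it was kept (adjusted p = 0.0489). FOXS1, a forkhead gene found in neural crest derivatives and around vessels, had 8.98, 3.33 and 1.71 in endoderm, against 87.8, 66.6 and 30.1 in hESCs (-3.55 ± 0.47, adjusted p = 0.00604). FOXS1 rests on 16 reads in endoderm and 231 in hESCs, and its call was lost without hESC G1/S (adjusted p = 0.0618) and without both G1/S libraries (adjusted p = 0.0574). The measured neural crest marker other than a member, NGFR, was lower in endoderm, with 126 ± 45.6 in endoderm and 667 ± 392 in hESCs, and of the fibroblast and mesenchyme markers COL1A1 and THY1 were lower and VIM higher. Their part in the FOXS1 value was not tested. SIX5, FOXJ3, FOXL1, FOXL2, LHX3, LHX4, DLX3 and NKX2-8 did not pass, and among them SIX5 had endoderm libraries that all lay above the hESC libraries, with 630.4, 1569 and 941 in endoderm against 569, 603 and 403 in hESCs (0.92 ± 0.30, adjusted p = 0.0802). With a GC correction SIX5 passed, at a difference of 1.09 (adjusted p = 0.0315). NKX2-8 had 7.60, 25.0 and 17.1 in endoderm, against 3.78, 6.25 and 7.68 in hESCs (1.25 ± 0.58, adjusted p = 0.175). DLX3, a homeodomain gene of ectoderm and placenta, had 13.8, 83.2 and 32.5 in endoderm, against 40.1, 37.5 and 22.4 in hESCs, with the endoderm values spread to both sides of the hESC values (0.06 ± 0.55, adjusted p = 0.952).

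Within the larger families the calls were mixed. FOX genes had 7 higher, 2 lower and 12 not past the test, and SOX genes had 2 higher and 8 not past. Both GATA genes, HNF4A, OTX2 and PAX6 were higher, LHX had 1 of 3 higher, and the LHX3 and LHX4 differences were 0.33 ± 0.48 (adjusted p = 0.649) and 0.31 ± 0.40 (adjusted p = 0.605). FOXC2 and FOXL1, forkhead genes 11739 bases apart, differed by 2.67 and by 0.57, and the divergent neighbours ZIC2 and ZIC5, 16292 bases apart, by 1.78 and 1.38.

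Partners and corepressors with which these factors act gave 2 higher and 2 lower among the 17 of 30 listed genes that were measured, with a median log2 difference of 0.50. The shares over all regions were 6.9% higher and 7.6% lower. The higher genes were the Groucho corepressors TLE2, with 934 ± 345 in endoderm and 246 ± 70.9 in hESCs (1.90 ± 0.28, adjusted p = 0.00762), and TLE3, with 648 ± 184 in endoderm and 329 ± 78.5 in hESCs (0.96 ± 0.24, adjusted p = 0.0386). Among the lower genes was GLI1, a target of hedgehog signalling, with 49.5 ± 14.8 in endoderm and 115 ± 26.0 in hESCs (-1.22 ± 0.31, adjusted p = 0.0426). SMAD4 and CTNNB1 did not pass, at -0.41 ± 0.43 (adjusted p = 0.522) and -0.05 ± 0.27 (adjusted p = 0.909).

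Developmental transcription factors outside the member families gave 11 higher and 4 lower among the 26 of 65 listed genes that were measured, with a median log2 difference of 1.38. Over all regions 6.9% were higher and 7.6% lower. The list shares GSC, MIXL1 and EOMES with the definitive endoderm markers, and TWIST1 with the mesoderm markers. It also shares TFAP2C with the trophoblast markers and POU5F1 with the hESC markers, so these genes are not further evidence. Among the higher genes were GSC, MIXL1, EOMES, PITX1, HLX, TWIST1, SNAI1, KLF5, SALL4 and RXRG, and lower were POU3F1, ONECUT1, TFAP2C and PRDM14. EOMES, a T-box gene without the TBX prefix that acts at the start of endoderm formation, had 5976 ± 2729 in endoderm and 257 ± 32.9 in hESCs (4.44 ± 0.26, adjusted p = 0.00118). ONECUT1, also called HNF6 and known from liver and pancreas, differed in the opposite direction to HNF4A, with 2.07, 3.33 and 8.56 in endoderm against 31.0, 38.5 and 21.9 in hESCs (-2.61 ± 0.63, adjusted p = 0.0348). POU3F1, a POU-homeodomain gene of the epiblast and neural plate, had 73.8 ± 25.4 in endoderm and 274 ± 42.2 in hESCs (-1.92 ± 0.29, adjusted p = 0.00895).

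Regions without a gene name were read near several members. Within 50 kb, 9 of the 19 higher members had 13 unnamed regions, of which 7 were higher in endoderm and 0 lower, and 12 other members had 18, of which 3 were higher and 0 lower. The unnamed region between ZIC2 and ZIC5 and the one near both FOXC2 and FOXL1 are in both counts. Over all 4300 unnamed regions tested, 6.77% were higher. Upstream of GATA4 and on its strand, a region 31476 bases away had 175, 552 and 346 in endoderm, against 3.78, 3.12 and 5.32 in hESCs (6.02 ± 0.45, adjusted p = 0.00172). Another, 12663 bases away, had 23.5, 23.3 and 15.4 in endoderm, against 1.51, 0 and 1.18 in hESCs (3.60 ± 0.78, adjusted p = 0.0258). Both therefore separate the types as GATA4 does, and whether they belong to its transcript is not given by the table.

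Around LHX1 there were 3 unnamed regions on the opposite strand, at 11743, 12009 and 17486 bases, and all 3 were higher in endoderm. The middle one had 257, 619 and 264 in endoderm, against 44.6, 44.8 and 45.5 in hESCs (2.92 ± 0.36, adjusted p = 0.00477), with G1/S the highest of the endoderm libraries. The nearest had 29, 15.0 and 61.6 in endoderm, against 3.78, 2.08 and 0.591 in hESCs, with G1/S the lowest of the endoderm libraries (3.44 ± 0.76, adjusted p = 0.0276), and the farthest had 59.4, 189.7 and 85.6 in endoderm, against 15.9, 19.8 and 17.1 in hESCs (2.43 ± 0.41, adjusted p = 0.0121). Beside ZIC2, an opposite-strand region 534 bases away had 29.7, 29.9 and 18.8 in endoderm, against 4.54, 1.04 and 4.73 in hESCs (2.73 ± 0.65, adjusted p = 0.0342). Within 50 kb of FOXH1, whose own difference did not pass, an opposite-strand region 32012 bases away had 55.9, 118 and 75.3 in endoderm, against 1.51, 0 and 1.18 in hESCs (5.51 ± 0.64, adjusted p = 0.00424). Regions of NFKBIL2 and CYHR1 lie between that region and FOXH1. The sources used here do not say whether the authors' counting used the strand, so values of overlapping regions on opposite strands are uncertain.

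**Figure D3:**
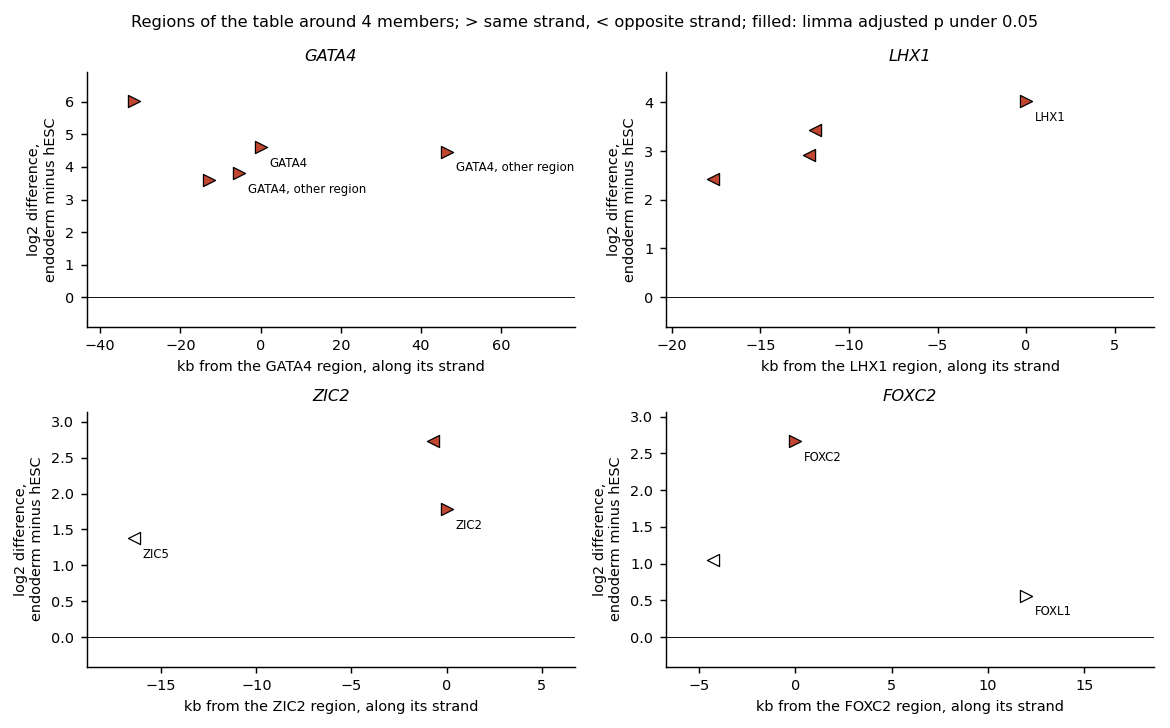
Log2 difference, endoderm minus hESC (y axis), of each region of the table within 50 kb of 4 members against its distance from the member along the member's strand in kb (x axis). Triangles point right for the member's strand and left for the opposite strand, are filled for a limma adjusted p under 0.05, and have no name where the region has none. Near GATA4 the farthest unnamed region differs by 6.02 and GATA4 by 4.60, near LHX1 the 3 opposite-strand regions differ by 2.43 to 3.44, and FOXL1 differs by 0.57 beside 2.67 in FOXC2.

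Cell cycle phase: no member passed the test for S against G1 or for G1/S against G1 when both types were fitted together, nor did any region (0% called in both, limma). At an unadjusted p under 0.05, 2 members passed for S and 9 for G1/S, against 3.39% and 13.7% of all regions, and edgeR and DESeq2 on the recovered reads called 0 members in either comparison, where edgeR called 0 regions in both and DESeq2 called 1 for S and 89 for G1/S. The median member differed by 0.09 on the log2 scale in S minus G1 (all regions 0.00) and by 0.27 in G1/S minus G1 (all regions 0.07). SOX3 had the smallest unadjusted p of the S comparison, with a difference of 1.55 ± 0.39 (limma adjusted p = 0.982), from 282 in S and 76.6 in G1 of endoderm and 95.1 in S and 40.1 in G1 of hESCs. FOXS1 had a negative difference of -1.70 ± 0.58 (limma adjusted p = 0.982), NKX2-2 one of 1.94 and MSX1 one of 1.70.

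In the G1/S comparison NKX2-2 differed by 2.70 ± 0.86, NKX2-5 by 1.69 ± 0.50 and LHX3 by -1.72 ± 0.58, with an adjusted p of 0.362 in each. LHX3 had 40.0, 8.32 and 20.5 in endoderm and 27.2, 10.4 and 11.8 in hESCs, with G1/S the lowest in both types. In 17 members (31.5%) the G1/S library was the highest in both types, against 24.5% of all regions, and in 4 members (FOXJ3, FOXJ2, ZIC2 and LHX3) it was the lowest in both (7.41%), against 18.5%. The 54 genes took 0.335, 0.576 and 0.421% of the reads in the endoderm libraries and 0.427, 0.399 and 0.325% in the hESC libraries. Their summed signal was 12456, 30699 and 18024 in endoderm and 16078, 17438 and 11899 in hESCs. Without SOX4, the member with the most reads, it was 9760, 19137 and 11359 in endoderm and 8447, 9681 and 6976 in hESCs. The order of the types in G1 thus depended on SOX4. The G1/S libraries are those whose deviation follows GC content, and the members' transcript ends had a median GC content of 46.1%, against 46.4% over named genes. With the correction for GC content the median member difference of G1/S minus G1 was 0.54, against 0.04 over all regions. With 1 library for each type and phase, phase and library cannot be told apart.

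**Figure D4:**
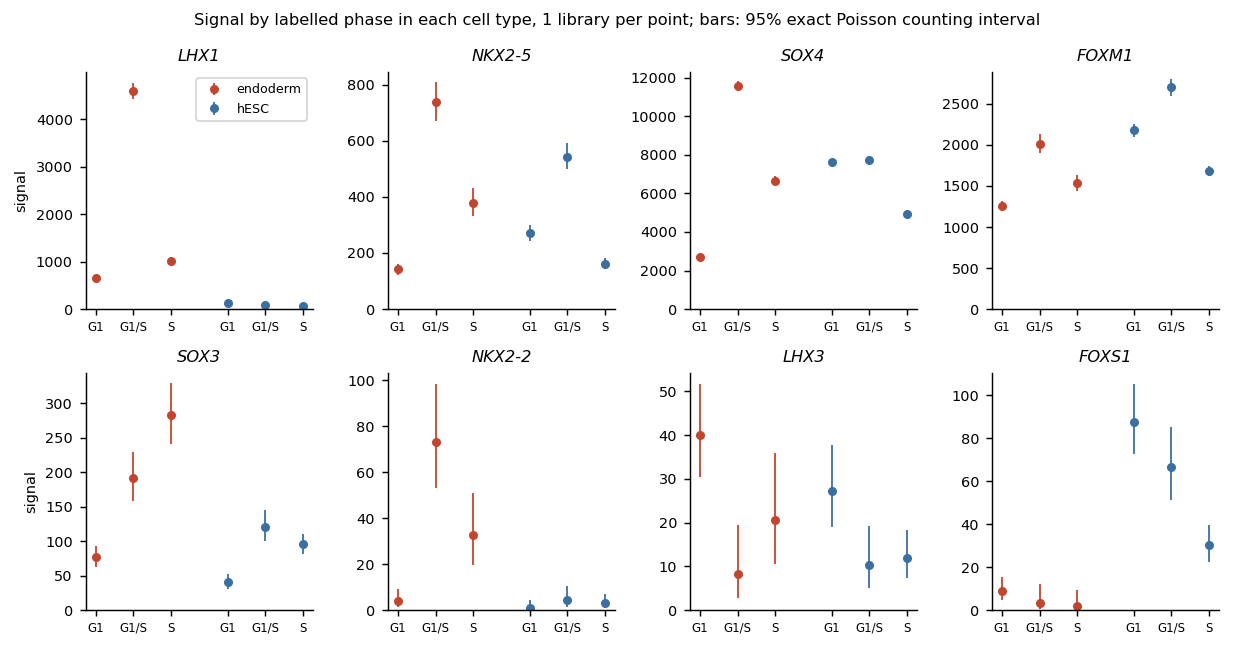
Signal (linear y axes from 0) of 8 members by labelled phase, endoderm in red at the left and hESC in blue at the right of each panel, 1 library per point, with 95% exact Poisson counting intervals as bars. LHX1 stands at 4587 in endoderm G1/S and at 132 or less in the hESC libraries, and LHX3 is lowest in G1/S in both types at 8.32 in endoderm and 10.4 in hESCs.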

How the data were processed

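Polyadenylated RNA from 6 libraries was sequenced from the 3' end. Tools listed in the submitters' processing notes are Bowtie 0.12.7, CASAVA 1.5 and DESeq 1.5.24, and the builds listed are NCBI36 and hg18, with no word on what each was used for. The authors deposited 1 table of signal values for 14686 regions, each with a position and a gene name or a number. The deposited signal is on a linear scale, whatever the table's title says of variance stabilisation, so log2(value + 1) was tested, as the design names for linear values. In every library 100% of the values are whole numbers of reads (tolerance 1e-06) divided by a constant, and this constant equals the library's median-of-ratios size factor. All 54 genes, 59 regions and their strands matched the later GENCODE annotation (99.7% of 8834 named regions did), while positions are printed as deposited on hg18. A gene with several regions was represented by the one with the highest mean.

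Regions with log2(value + 1) of at least 1 in at least 3 libraries were kept (14657, all 54 genes among them). In R 4.3.3, limma 3.58.1 (lmFit, eBayes with trend) fitted cell type and phase terms over all kept regions, with 2 residual degrees of freedom and Benjamini-Hochberg adjustment at 0.05. On the recovered reads edgeR 4.0.16 called 1990 regions between the cell types and DESeq2 1.42.0 called 2780. Alternatives were other pseudocounts, filters, scalings, a GC correction from the last 500 bases of each gene's longest transcript, no phase term, and leaving out libraries. The script was tested on simulated data. Values in every library are given for members past the threshold, the member with the highest mean of each family, the 5 largest differences that did not pass, and members whose fitted phase difference over both types exceeded 1.5 (log2) in size with the same direction in each type. FOXA3, FOXH1, SOX12, SOX15 and FOXL2 were added after their values were seen. The members, role groups, gene lists and tests were chosen with earlier results of these data known. No column of values was left unused. Of the 54 members, 2 enter every count and median but are not reported here by name, as are single genes of the other lists.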

Additional observations from a re-analysis of the deposited data

Results flagged for a closer look

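Between the phases S and G1, 3 members differed by at least 2-fold in opposite directions in the 2 cell types, with counting intervals that do not meet within either type. SOX21 differed by 2.35 on the log2 scale in endoderm (S minus G1) and by -2.31 in hESCs. MEIS3, with a signal of 96.0, 69.9 and 27.4 in the endoderm libraries (in the order of phases), against 15.1, 20.8 and 33.1 in hESCs, differed by -1.77 in endoderm and by 1.08 in hESCs. FOXL2, with 23.5, 89.8 and 68.5 in endoderm, against 49.9, 34.4 and 15.9 in hESCs, differed by 1.505 in endoderm and by -1.59 in hESCs. The difference between the types was not tested, because each phase has 1 library per type. The intervals cover counting error only, and the hESC values of SOX21 rest on 13 reads in G1 and 2 in S. A share over all regions that meet the same rule is not given here, so the count of 3 cannot be judged against it.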

How the results depend on the processing

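The model had 22 members called between the cell types, and the median member difference stayed between 0.71 and 0.91 in every alternative run. Leaving out 1 library gave 7 to 26 called members: 26 without hESC G1 or without endoderm G1, 7 without hESC G1/S, 9 without endoderm G1/S, 14 without hESC S and 13 without endoderm S, and 7 without both G1/S libraries (6 higher and 1 lower). These fits have fewer samples, and those that drop either library of a phase share the same differences. The fit without the replicate block, which is the phase term, called 19. The phase labels name a shared condition and not shared cultures, and the deviations of same-phase libraries correlated at 0.01 (G1), 0.35 (G1/S) and 0.08 (S). Pairs of unlike phases ranged from -0.42 (endoderm G1/S with hESC S) to 0.39 (endoderm G1 with hESC S). The latter was above every same-phase pair. edgeR called 18 members (16 higher and 2 lower), DESeq2 23 (19 higher and 4 lower), quantile normalisation 19, the fit without an intensity trend 16, and the stricter filter 15 of the 38 members it tested. The calls lost with edgeR were those of SOX21, IRX4, FOXO3 and FOXD1 (edgeR adjusted p = 0.0508, 0.0592, 0.05001 and 0.0664). For G1/S against G1 the count was 0, and 0 to 3 when 1 library was left out (3 without hESC G1). No called member changed direction. Of the members that did not pass, 8 changed sign when libraries were left out, with the GC correction or in the count tests, and the cause was not tested: DLX3 (-0.48 to 0.82 when 1 library was left out, -0.48 without both G1/S libraries, -0.0082 with the GC correction), MSX1 (-0.87 to 1.34 and -0.87), NKX2-5 (-0.24 to 0.83) and SOX4 (-0.53 to 0.51), and, as ranges when 1 library was left out, FOXA3 (-0.082 to 0.87), FOXH1 (-0.072 to 0.35), LHX4 (-0.013 to 0.73) and FOXN3 (-0.57 to 0.16). At 60 reads over 6 libraries, a member's low values rest on single reads.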
